A study of Homo sapiens with 6 samples.

Results

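Endoplasmic reticulum associated degradation (ERAD) was examined through 10 genes in SK-N-SH, a line of human neuroblastoma cells that carried no engineered change (its genotype was labelled wild type). The genes were HERPUD1, SYVN1, SEL1L, EDEM1, EDEM2, EDEM3, DERL1, DERL2, OS9 and VCP, taken by symbol from a table of 26789 genes. All 10 were found once, and all 10 passed the filter on low values. In the dopamine group (n = 3) cells received dopamine in their medium for 6 h, and in the control group (n = 3) medium without it, each after 24 h of culture. The dose stands in the labels as 40 M, probably with the unit's prefix dropped, and no meaning is drawn from it. The design text names SH-SY5Y, a subline of SK-N-SH, as the treated line, whereas all 6 samples were labelled SK-N-SH. Nothing in the labels says that replicates came from separate cultures, so p-values here reflect sample-to-sample spread that may be technical only. The series asks what dopamine does to cell growth.

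ERAD removes proteins that fail to fold in the endoplasmic reticulum (ER). Mannosidases of the EDEM family trim the sugar chains of such proteins, the lectin OS9 reads the trimmed sugars, and a complex around the ubiquitin ligase HRD1 (gene SYVN1) and its adaptor SEL1L moves the protein across the membrane and marks it. Derlins (DERL1, DERL2) form part of the passage, HERPUD1 joins the ligase complex, and the ATPase VCP pulls the protein into the cytosol for the proteasome. Many ERAD genes are known targets of the unfolded protein response, the transcriptional answer to misfolded protein in the ER.

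HERPUD1 rose about 2-fold with dopamine and was the only one of the 10 genes past the adjusted threshold with all 6 libraries weighted equally and no correction for GC content and length. SYVN1, SEL1L, EDEM1, EDEM3, DERL1 and DERL2 had higher values in all dopamine libraries than in any control library and did not pass in that setting. Of all tested genes 24.4% were higher in this way. After a correction for GC content and length the groups of EDEM3, DERL1 and DERL2 overlapped. For OS9, EDEM2 and VCP the groups overlapped.

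The promoter of HERPUD1 is shown because it carries letter matches to motifs known from ER and amino acid stress, that of VCP because it carries one while the gene's groups overlapped, and that of SYVN1 because it carries none. The sequences are the 250 bases before the gene start (RefSeq, GRCh38.p14), read along the gene's strand, and capitals mark motif matches. They lie at chr16:56931892-56932141 on the plus strand for HERPUD1, chr9:35072626-35072875 on the minus strand for VCP and chr11:65134520-65134769 on the minus strand for SYVN1.
HERPUD1: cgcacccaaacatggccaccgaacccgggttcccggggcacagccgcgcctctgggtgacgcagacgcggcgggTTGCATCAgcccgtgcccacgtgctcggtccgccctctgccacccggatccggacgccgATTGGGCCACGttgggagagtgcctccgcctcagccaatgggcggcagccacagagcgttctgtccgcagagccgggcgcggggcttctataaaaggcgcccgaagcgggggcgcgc
VCP: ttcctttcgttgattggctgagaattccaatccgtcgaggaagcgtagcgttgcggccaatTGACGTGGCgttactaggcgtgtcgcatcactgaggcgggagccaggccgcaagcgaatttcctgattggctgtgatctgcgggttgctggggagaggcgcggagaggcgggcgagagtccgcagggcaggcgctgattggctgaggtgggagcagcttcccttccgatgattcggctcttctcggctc
SYVN1: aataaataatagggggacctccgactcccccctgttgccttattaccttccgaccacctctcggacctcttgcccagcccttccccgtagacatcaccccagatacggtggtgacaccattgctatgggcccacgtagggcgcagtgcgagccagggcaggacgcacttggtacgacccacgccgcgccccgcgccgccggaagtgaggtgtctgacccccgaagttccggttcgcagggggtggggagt

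Of the 10 genes 9 had their promoter searched, all but DERL1, on both strands. ER stress response element II matched in HERPUD1 alone, as ATTGGGCCACG from base -117 to -107 relative to the start, and in 0.0513% of 27305 promoters of the same length. TTGCATCA, a core of amino acid response elements, also matched in HERPUD1 alone, from -176 to -169, and in 0.82% of all promoters. TGACGTGG, known as an unfolded protein response element, matched in VCP alone, from -189 to -182, and in 0.667% of all promoters. TGACNNNGC, the core of antioxidant response elements, matched in VCP at the same place, overlapping TGACGTGG, and in SEL1L on the opposite strand, from -34 to -26. It matched in 11% of all promoters. The first ER stress response element and TGACGTGA, another form of the unfolded protein response element, matched in none of the 9 and in 0.0806% and 0.348% of all promoters. A match is a string of letters and not a measured binding site. The motifs were taken from what is known of such stress, so a match in HERPUD1 is no independent result. The shares over all promoters only describe how rare the letters are.

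The libraries differed in ways that touch these genes. Depth, recovered from the steps between low values, ran from 19390000 to 24227000 fragments. Each library's dependence on GC content was described by the slope of its deviation from the gene means per 10 points of transcript GC content. It was -0.03, -0.06 and -0.26 log2 units in dopamine replicates 1, 2 and 3, and 0.02, 0.11 and 0.22 in control replicates 1, 2 and 3 (two-sided exact permutation test, p = 0.1, the lowest possible with 3 against 3). Dopamine replicate 3 and control replicate 3 lay at the ends of the first principal component. Results are therefore also given after a correction of each library for GC content and transcript length, which can remove part of a real difference. All 9 adrenergic neuroblast markers and all 9 mesenchymal markers were above the filter, with summed levels of 326 to 375 FPKM in dopamine and 325 to 370 FPKM in control libraries for the adrenergic list. The mesenchymal list summed to 1818 to 1932 FPKM in dopamine and 1828 to 2068 FPKM in control libraries. Blood cell markers summed to 0.0959 to 0.149 FPKM in dopamine and 0.173 to 0.205 FPKM in control libraries, over 4 listed genes. PTPRC and HBA1 among them were listed at 0 in all dopamine libraries. Of 6 epithelial markers the keratin genes KRT8, KRT18 and KRT19 were the 3 above the filter, and the list summed to 105 to 121 FPKM in dopamine and 140 to 175 FPKM in control libraries. None of these 3 passed the adjusted threshold, and EPCAM, CDH1 and ESRP1 lay below the filter. RNAs that stay in the nucleus, listed as a sign of RNA quality, summed to 3.46 to 6.3 FPKM in dopamine and 2.8 to 3.6 FPKM in control libraries. MALAT1 had 1.49, 1.36 and 2.56 FPKM in dopamine libraries, against 1.16, 1.07 and 0.855 FPKM in control libraries. Its groups lay apart, as in 24.4% of all tested genes that were higher in this way. NEAT1 had 1.52, 1.01 and 2 FPKM, against 1.22, 0.894 and 0.962 FPKM, and its groups overlapped. The part of these differences in the results was not tested.

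**Figure D1:**
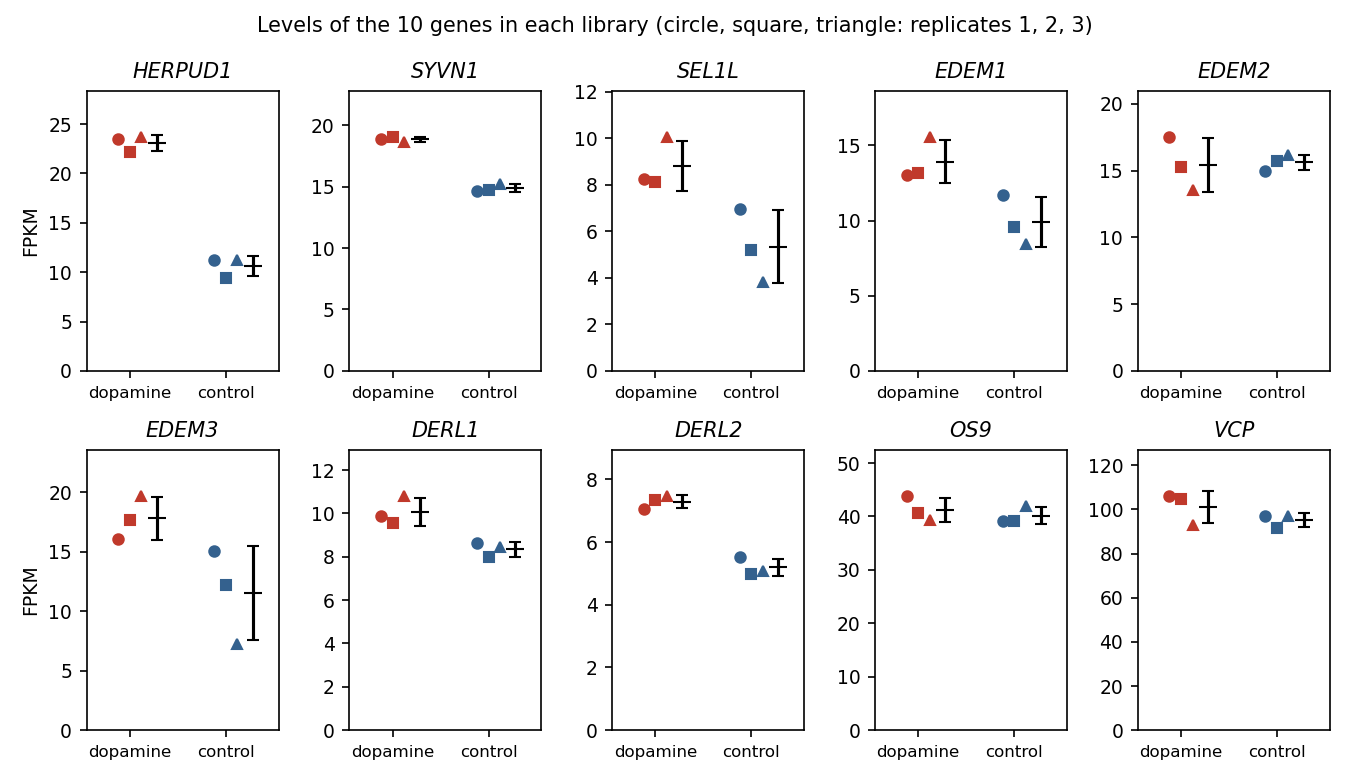
Levels in FPKM (vertical axis, from 0, scaled for each gene) of the 10 ERAD genes in dopamine libraries (left, red) and control libraries (right, blue), with mean and SD of 3 libraries in black. HERPUD1 shows the widest gap between the groups, 23.1 against 10.6 FPKM, while OS9, EDEM2 and VCP overlap.

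HERPUD1 (ENSG00000051108.10, hg19 chromosome 16, 56965960 to 56977798) encodes an ER membrane protein with a ubiquitin-like domain. It had 23.5, 22.2 and 23.7 FPKM in dopamine replicates 1, 2 and 3, against 11.3, 9.4 and 11.2 FPKM in control replicates 1, 2 and 3. FPKM divides a gene's fragments by its length and by the size of the library. In such bulk RNA a change in every cell and a larger change in some cells cannot be told apart. Every dopamine value was above every control value, and within a group the highest library was 1.07 times the lowest with dopamine and 1.2 times in control. On the log2(FPKM + 0.5) scale the fold change was 2.13 (95% confidence interval 1.84 to 2.46, limma adjusted p = 0.0024), rank 3 by p among 11791 tested genes. HERPUD1 was higher in 3 of 3 dopamine libraries and passed the threshold under all 22 alternatives, its log2 fold change lying between 0.94 and 1.17 and its adjusted p between 6.36e-05 and 0.0497. Corrected for GC content and length, it had a log2 fold change of 0.94 (limma adjusted p = 0.00382).

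Among all tested genes 0.0848% rose at the adjusted threshold and 0.017% fell, 10 and 2 genes. Without control replicate 1 the number of the 10 genes called was 6, all higher, beside 16.8% of all tested genes that rose and 1.66% that fell. With sample quality weights it was 7, all higher, beside 17.4% and 5.51%. At an unadjusted p under 0.05, 7 of the 10 genes were higher and 0 lower, beside 24.4% and 8.05% of all tested genes (limma). The groups lay apart in 7 of the 10 genes, all of them higher with dopamine, beside 24.4% of all tested genes that were higher and 14.1% that were lower in this way. In 9 of the 10 genes the dopamine mean was higher, beside 60% of all tested genes. After median-of-ratios scaling, and also after the GC and length correction, it was higher in 7 of the 10. No share over all genes was taken for those settings. The 10 had a median log2 fold change of 0.39, and all tested genes one of 0.08. After median-of-ratios scaling these medians were 0.30 and 0.00. After the GC and length correction HERPUD1 and SYVN1 were the 2 called genes, beside 0.207% of all genes that rose and 0.0345% that fell, and 4 of the 10 had groups apart, beside 11.5% that were higher and 12.3% that were lower. Their median was then 0.15, and that of all genes -0.0043. At an unadjusted p under 0.05, 4 of the 10 were then higher and 0 lower, beside 8.14% and 8.82% of all genes.

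**Figure D2:**
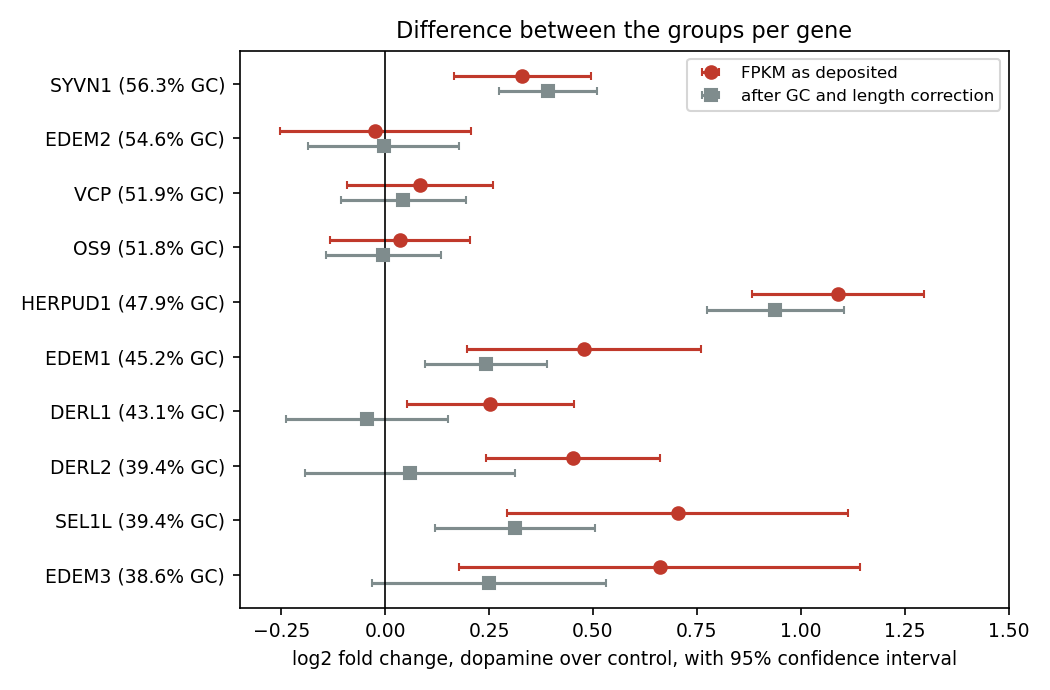
Log2 fold change of dopamine over control (horizontal axis, with 95% confidence interval from limma, n = 3 per group) as deposited (red circles) and after the GC and length correction (grey squares), with genes ordered by transcript GC content, the highest at the top. HERPUD1 keeps a log2 fold change of 0.94 after the correction, SYVN1 has 0.39, and the 3 genes of lowest GC content move most towards 0.

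The core of the ligase complex came next. SYVN1 (ENSG00000162298.12, chromosome 11, 64889252 to 64902004), the gene of the ubiquitin ligase HRD1, had 18.9, 19 and 18.6 FPKM in dopamine libraries, against 14.6, 14.8 and 15.3 FPKM in control libraries. The groups lay apart and the replicates were the tightest of the 10 genes, within 1.02-fold with dopamine and 1.04-fold in control. Its fold change was 1.26 (95% confidence interval 1.12 to 1.41) and did not pass over all genes (limma adjusted p = 0.11). SYVN1 passed after the GC and length correction, with a log2 fold change of 0.39 against 0.33 before (limma adjusted p = 0.032 after correction). It also passed with sample quality weights (limma adjusted p = 0.0121) and without control replicate 1 (limma adjusted p = 0.0454), and over the 22 alternatives its adjusted p lay between 0.0121 and 0.294. In the deposited coordinates SYVN1 shares 5189 bases with MRPL49 and 694 with FAU, both expressed, and no source used here says whether counting took strand into account, so its level is uncertain.

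SEL1L (ENSG00000071537.9, chromosome 14, 81937893 to 82000205), the adaptor that holds HRD1, had 8.24, 8.13 and 10 FPKM in dopamine libraries, against 6.97, 5.2 and 3.83 FPKM in control libraries. The groups lay apart, but the control values differed among themselves by 1.82-fold, control replicate 3 being the lowest and dopamine replicate 3 the highest of all 6. The fold change was 1.63 (95% confidence interval 1.23 to 2.16, limma adjusted p = 0.11), and the log2 fold change was 0.70 as deposited and 0.31 after the GC and length correction (limma adjusted p = 0.169 after correction). Its log2 fold change was 0.90 without control replicate 1, where it passed (limma adjusted p = 0.0304), and 0.41 without replicate 3 of both groups, where it did not (limma adjusted p = 0.308). The level of SEL1L relative to SYVN1 within a library was 0.437, 0.428 and 0.539 in dopamine libraries, against 0.476, 0.352 and 0.251 in control libraries. These ratios overlapped between the groups.

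The 3 EDEM genes, which trim mannose from misfolded glycoproteins, did not move as one. EDEM1 (ENSG00000134109.6, chromosome 3, 5229331 to 5261642) had 13.1, 13.2 and 15.5 FPKM in dopamine libraries, against 11.7, 9.59 and 8.45 FPKM in control libraries. EDEM3 (ENSG00000116406.14, chromosome 1, 184659365 to 184724047) had 16.1, 17.7 and 19.7 FPKM in dopamine libraries, against 15.1, 12.2 and 7.28 FPKM in control libraries. In both genes the groups lay apart, with control replicate 3 lowest and dopamine replicate 3 highest, and EDEM3 differed 2.07-fold within the control group. The fold change was 1.39 for EDEM1 (95% confidence interval 1.15 to 1.69, limma adjusted p = 0.11). For EDEM3 it was 1.58 (95% confidence interval 1.13 to 2.21, limma adjusted p = 0.112). With the correction for GC content and length the log2 fold change was 0.24 for EDEM1, against 0.48 as deposited, and 0.25 for EDEM3, against 0.66 as deposited (limma adjusted p = 0.167 and 0.345 after correction), and the groups of EDEM3 then overlapped. Both passed without control replicate 1 (limma adjusted p = 0.0304 for each), with log2 fold changes of 0.60 for EDEM1 and 0.88 for EDEM3. Without replicate 3 of both groups neither passed, and both had a log2 fold change of 0.30.

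EDEM2 (ENSG00000088298.8, chromosome 20, 33703167 to 33865928) had 17.5, 15.3 and 13.5 FPKM in dopamine libraries, against 15, 15.7 and 16.1 FPKM in control libraries. Its groups overlapped, and the dopamine libraries enclosed all control values. The fold change was 0.984, and its 95% confidence interval of 0.84 to 1.15 leaves out a rise as large as that of HERPUD1 (limma adjusted p = 0.885). The interval of EDEM2 in the table spans MMP24 and its antisense gene MMP24-AS1 as well as PROCR, so reads of EDEM2 may be shared with them. The level of EDEM3 relative to EDEM2 was 0.918, 1.16 and 1.45 in dopamine replicates 1, 2 and 3, against 1.01, 0.777 and 0.451 in control replicates 1, 2 and 3. These ratios overlapped between the groups as well, and so did those of EDEM1 to EDEM2. The ratios of DERL2 to DERL1, HERPUD1 to SYVN1 and OS9 to SEL1L lay apart. None of these ratios was corrected for GC content.

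Both derlin genes, whose products belong to the membrane passage, were higher in every dopamine library. DERL2 (ENSG00000072849.6, chromosome 17, 5374571 to 5390131) had 7.05, 7.35 and 7.46 FPKM in dopamine libraries, against 5.51, 4.98 and 5.09 FPKM in control libraries. DERL1 (ENSG00000136986.5, chromosome 8, 124025404 to 124054663) had 9.86, 9.54 and 10.8 FPKM in dopamine libraries, against 8.65, 7.98 and 8.43 FPKM in control libraries. Replicates of both were tight, within 1.13-fold. The fold change of DERL2 was 1.37 (95% confidence interval 1.18 to 1.58, limma adjusted p = 0.11) and that of DERL1 was 1.19 (95% confidence interval 1.04 to 1.37, limma adjusted p = 0.117). Neither difference held after the GC and length correction, which left log2 fold changes of 0.06 for DERL2 and -0.04 for DERL1, against 0.45 and 0.25 before. DERL2 passed without control replicate 1 (limma adjusted p = 0.0311), and DERL1 did not (limma adjusted p = 0.0972). With sample quality weights both passed (limma adjusted p = 0.00918 for DERL2 and 0.0298 for DERL1). DERL2 shares 527 bases with the neighbouring gene MIS12.

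OS9 and VCP were the most abundant of the 10 and the groups overlapped in both. OS9 (ENSG00000135506.11, chromosome 12, 58087738 to 58115340), the lectin gene, had 43.7, 40.6 and 39.3 FPKM in dopamine libraries, against 39.2, 39.2 and 42 FPKM in control libraries. VCP (ENSG00000165280.11, chromosome 9, 35056061 to 35073246) had 106, 105 and 92.8 FPKM in dopamine libraries, against 97.1, 91.7 and 97.1 FPKM in control libraries. Their fold changes were 1.03 for OS9 (95% confidence interval 0.912 to 1.15, limma adjusted p = 0.752) and 1.06 for VCP (95% confidence interval 0.939 to 1.2, limma adjusted p = 0.453). The log2 fold change of both turned slightly negative after median-of-ratios scaling, to -0.05 for OS9 and -0.01 for VCP.

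Because FPKM is scaled to gene length, levels of the 10 genes can be set in a rough order. The places of SYVN1 and EDEM2 in it are uncertain, since reads of overlapping genes may enter their levels. Differences in GC dependence between libraries were not removed from it. With dopamine the mean levels ran VCP, OS9, HERPUD1, SYVN1, EDEM3, EDEM2, EDEM1, DERL1, SEL1L and DERL2, from 101 to 7.28 FPKM. In control cells they ran VCP, OS9, EDEM2, SYVN1, EDEM3, HERPUD1, EDEM1, DERL1, SEL1L and DERL2, from 95.3 to 5.2 FPKM. HERPUD1 stood behind OS9 with dopamine, apart from its neighbours, and between EDEM3 and EDEM1 in control, where its values overlapped those of EDEM3 and EDEM1. Between SYVN1 and EDEM1 with dopamine, and between EDEM2 and DERL1 in control, each neighbour overlapped the next. DERL1 and SEL1L overlapped with dopamine and lay apart in control cells, while SEL1L and DERL2 lay apart with dopamine and overlapped in control cells. Within each library HERPUD1 made up 8.9%, 8.61% and 9.41% of the summed FPKM of the 10 genes in dopamine libraries, against 5%, 4.46% and 5.22% in control libraries. The means were 8.98 ± 0.406% with dopamine and 4.89 ± 0.392% in control (SD, n = 3 each; two-sided exact permutation test, p = 0.1, the lowest possible with 3 against 3). A share within a library does not depend on its total.

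**Figure D3:**
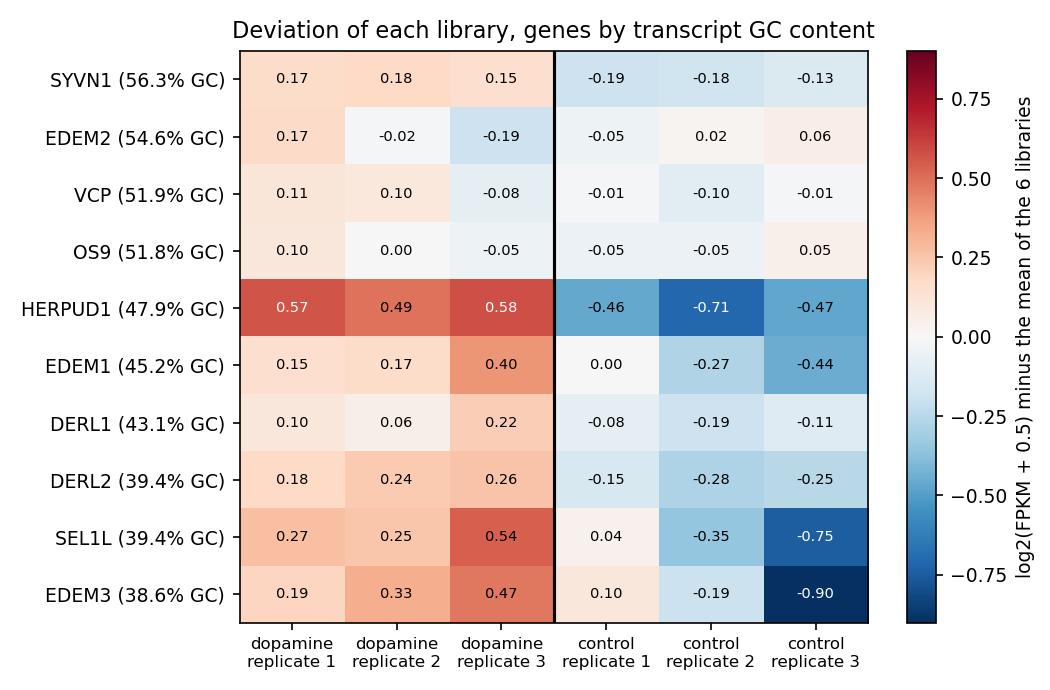
Deviation of each library (columns, dopamine left of the line, control right) from the gene's mean over 6 libraries, in log2 units (colour and printed value), for the 10 genes ordered by transcript GC content. HERPUD1, SYVN1 and DERL2 separate the groups about evenly, while in SEL1L, EDEM3 and EDEM1 control replicate 3 and dopamine replicate 3 hold the extremes.

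The 3 genes of lowest transcript GC content, EDEM3 (38.6%), SEL1L (39.4%) and DERL2 (39.4%), had log2 fold changes of 0.66, 0.70 and 0.45 as deposited and of 0.25, 0.31 and 0.06 after the correction. SYVN1, with the highest GC content at 56.3%, had 0.33 as deposited and 0.39 after it. HERPUD1 lies near the median of tested genes, at 47.9% against 49.4%. In EDEM3 the deviation from the gene's mean was -0.90 log2 units in control replicate 3 and 0.10 in control replicate 1. In HERPUD1 the 3 control libraries had deviations of -0.46, -0.71 and -0.47, and the dopamine libraries of 0.57, 0.49 and 0.58. The part of GC content in these differences was not tested beyond the correction.

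The patterns most like that of HERPUD1 were sought among 10250 other protein-coding genes, by the root-mean-square difference of log2 values centred on each gene's mean over the 6 libraries. The closest were MAT2A (0.0666 log2 units), which makes S-adenosylmethionine, the ER chaperone gene HSPA5 (0.0981), the mucin gene MUC13 (0.106), the thioredoxin reductase gene TXNRD1 (0.167) and GCLM (0.177), which serves glutathione synthesis. HSPA5 had 320, 303 and 351 FPKM in dopamine libraries, against 189, 150 and 163 FPKM in control libraries. MUC13 was low, with 1.74, 1.86 and 1.83 FPKM in dopamine libraries, against 0.818, 0.519 and 0.553 FPKM in control libraries. All its control values lay below 1 FPKM, so it reached the filter only through the dopamine group. Its limma adjusted p was 0.0512 as deposited and 0.032 after the GC and length correction. MUC13 was chosen for its likeness to HERPUD1, so these p-values are no separate result. Among the other 9 ERAD genes, which were part of the same search, the closest to HERPUD1 was SEL1L at 0.318 log2 units and the farthest EDEM2 at 0.575. That they lie farther than the 5 named genes follows from the choice of the 5 closest and is no separate result.

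The wider pathway was described with 5 lists of other ERAD genes, 96 of which were in the table and 89 above the filter. None of the 89 passed in limma. At an unadjusted p under 0.05 stood 36 higher and 8 lower genes, beside 24.4% and 8.05% of all tested genes. The 89 had a median log2 fold change of 0.20, beside 0.08 for all genes. It was 0.00 after the GC and length correction, when 11 higher and 8 lower genes had such a p, beside 8.14% and 8.82% of all tested genes. Without control replicate 1 the number called in either direction was 29, beside 16.8% of all tested genes that rose and 1.66% that fell. With sample quality weights it was 35, beside 17.4% and 5.51%.

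Partners of the HRD1 complex were the list whose median lay highest, at 0.31, with 7 of 10 tested genes higher at an unadjusted p under 0.05 and 0 lower. After the GC and length correction the median was 0.13, with 3 higher and 0 lower at that p. Among them FAM8A1, a cofactor of HRD1, had 5.32 ± 0.561 FPKM with dopamine and 3.13 ± 0.9 FPKM in control (SD, n = 3 each). The conjugating enzyme gene UBE2J1 had 13 ± 2.4 FPKM with dopamine and 8.99 ± 1.0 FPKM in control. VIMP, whose product selenoprotein S binds VCP at the membrane, had 13.6 ± 0.627 FPKM with dopamine and 11.1 ± 0.626 FPKM in control. Each of these had groups apart and missed the threshold (limma adjusted p = 0.11 for each). They were named for the smallest p of the list, so groups apart are no separate result. Over the list 7 of 10 were higher in this way, beside 24.4% of all tested genes.

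Other ER ubiquitin ligases and their partners had a median of 0.11, and at an unadjusted p under 0.05 stood 8 higher and 2 lower of 22. After the correction the median was 0.0024, with 2 higher and 1 lower. JKAMP, an ER membrane protein that binds ERAD components, had 8.34 ± 1.66 FPKM with dopamine and 4.72 ± 1.07 FPKM in control. The ligase gene TRIM13 had 2.3 ± 0.233 FPKM with dopamine and 1.43 ± 0.244 FPKM in control. RNF139, another ligase gene, had 6.58 ± 1.43 FPKM with dopamine and 4.38 ± 0.487 FPKM in control. In all 3 the groups lay apart, which is no separate result because they were named for the smallest p of the list. Glycan trimming and recognition had a median of 0.16, with 6 of 18 higher and 1 lower at that p, and of 0.09 after the correction, with 4 higher and 1 lower. The calnexin gene CANX had 68.7 ± 12.2 FPKM with dopamine and 44.6 ± 8.48 FPKM in control, and UGGT1, the folding sensor, 15.6 ± 2.18 FPKM with dopamine and 11.4 ± 2.12 FPKM in control. FBXO27, an F-box gene for glycoproteins, was the lower one, at 4.13 ± 0.268 FPKM with dopamine and 5.27 ± 0.229 FPKM in control.

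VCP cofactors and retrotranslocation genes had a median of 0.22, and at an unadjusted p under 0.05 stood 11 higher and 0 lower of 25. After the GC and length correction 2 were higher and 3 lower at that p, near the shares of 8.14% and 8.82% of all genes. The median was then 0.02. UBXN8 and UBXN4, whose products hold VCP at the ER membrane, had 3.77 ± 0.323 and 8.8 ± 1.23 FPKM with dopamine, against 2.31 ± 0.367 and 5.63 ± 1.34 FPKM in control. UBE4A, a ubiquitin chain assembly factor, had 9.25 ± 1.26 FPKM with dopamine and 6.75 ± 1.22 FPKM in control. Cytosolic shuttle factors and deubiquitinases were the one list whose median lay below 0, at -0.06, with 4 of 14 higher and 5 lower at that p. After the correction its median was -0.08, with 0 higher and 3 lower. SGTA and UBL4A, which work with BAG6, had 50.4 ± 2.88 and 19.2 ± 2.03 FPKM with dopamine, against 60.2 ± 3.99 and 23.5 ± 0.976 FPKM in control. None of the genes named here from the 5 lists passed, either as deposited (limma, adjusted p from 0.11 to 0.111) or once corrected for GC content and length (limma, adjusted p from 0.132 to 0.486). The 11 that were higher had a transcript GC content of 37.7 to 48% and the 3 that were lower one of 57.4 to 62.3%. The part of GC content in this order was not tested.

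**Figure D4:**
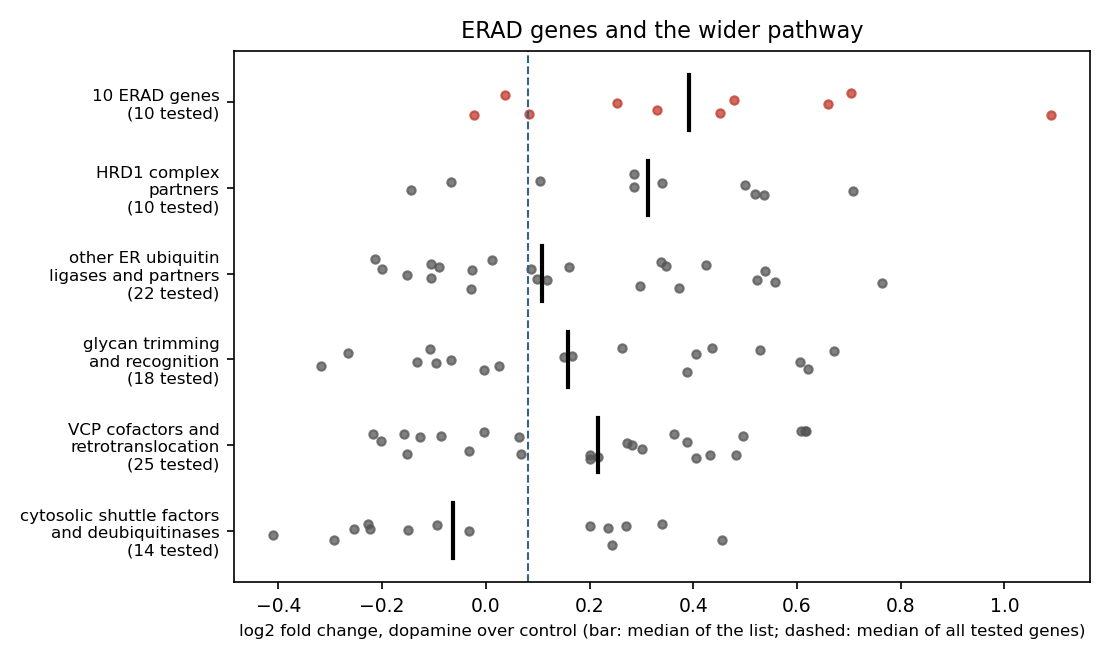
Log2 fold change of dopamine over control (horizontal axis) for the 10 ERAD genes (red) and the tested genes of 5 further lists (grey), each point 1 gene, with list medians as black bars and the median of all tested genes, 0.08, as a dashed line. HERPUD1 is the point farthest to the right, at 1.09, and the shuttle factor list has its median below 0.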

How the data were processed

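Per the labels' protocols, TRIzol RNA was depleted of ribosomal RNA and made into stranded total RNA libraries with random primers. The authors deposited 1 table of FPKM values with hg19 coordinates. The submitters' processing notes name DESeq2 1.40.2, HTSeq 0.11.2, STAR 2.7.1a, FastQC 0.11.9 and the build hg19 without a role. No source used here gives the annotation, the strand setting or the total behind FPKM. FPKM is relative to the library's total, so a rise of abundant genes lowers others.

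Groups and replicate numbers came from the titles. Depth was recovered from 2797 pseudogenes spanning 150 to 1500 bases, taken as single exons, with 92.5 to 94.4% of low values whole within 0.03 fragments. The 11791 genes whose mean FPKM reached 1 were tested as log2(FPKM + 0.5) with limma 3.58.1 in R 4.3.3 (intensity trend, no replicate block, two-sided, Benjamini-Hochberg over all tested genes, threshold 0.05), after a check on simulated data. Fold changes of low genes are understated on this scale. GC content and length of the longest transcript came from GENCODE release 29 by gene identifier for 98.2% of tested genes (loess, span 0.5). The members and lists were chosen with earlier results of these data known. Named beside the 10 members were the 3 genes of smallest p in each further list and the 5 patterns closest to HERPUD1. A gene that this rule also chose is not reported here. Alternatives changed the pseudocount, filter, scaling, prior, weights, block, threshold and libraries.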

Additional observations from a re-analysis of the deposited data

How the results depend on the processing

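Over 22 alternatives HERPUD1 stayed higher and called in all. The number of the 10 genes called was 1, but 7 with sample quality weights and 2 after the GC and length correction (HERPUD1 and SYVN1), and it lay between 1 and 6 when libraries were left out, 6 being the number without control replicate 1 (HERPUD1, SYVN1, SEL1L, EDEM1, EDEM3 and DERL2). DERL1 was the seventh with the weights. With the replicate block added to the GC and length correction 1 was called, SYVN1 having a limma adjusted p of 0.113. The number with groups apart was 7, but 8 after quantile normalization, 7 to 8 when single libraries were left out (8 without replicate 3 of either group), 9 without replicate 3 of both groups, and 4 after the GC and length correction with or without the replicate block, where the median log2 fold change was 0.15 against 0.39. Groups of fewer libraries lie apart more readily, so counts with libraries left out cannot be set against the 7. Over all genes 24.4% were higher in this way as deposited and 11.5% after the correction. For the other settings no such share was taken. Of the other ERAD genes 0 were called, but 35 with sample quality weights, where 17.4% of all tested genes rose and 5.51% fell. When libraries were left out it was 0 to 29, the 29 without control replicate 1, where 16.8% of all tested genes rose and 1.66% fell. Over all genes 12 were called, against 6 with no filter, 27 after quantile normalization, 5 with no trend, 2706 with sample quality weights, 28 after the GC and length correction, 6 at a threshold of 0.01 and 3 to 2177 when libraries were left out, the highest without control replicate 1. The replicate block gave 3 calls over all genes, HERPUD1 among them (limma adjusted p = 0.0335). Deviations of same-numbered libraries from their group means had correlations of -0.20, 0.28 and -0.37 for numbers 1, 2 and 3. With 3 libraries per group that also differ in their GC slopes, these values cannot decide whether the numbers pair the samples. The log2 fold change of EDEM2, -0.02, was 0.0316 with sample quality weights, lay between -0.115 and 0.0651 when single libraries were left out, and was 0.0886 without replicate 3 of both groups. That of DERL1 was -0.044 after the GC and length correction, with or without the block. That of OS9 was -0.0542 after median-of-ratios scaling, -0.0042 after the GC and length correction with or without the block, and between -0.00700 and 0.0693 when single libraries were left out, being lowest without dopamine replicate 1. That of VCP was -0.00707 after median-of-ratios scaling. The cause of these changes was not tested. The share of HERPUD1 kept its direction in all 10 alternatives, a difference of 3.83 to 4.26 percentage points.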
